A study of Homo sapiens with 12 samples.

Results

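The genes described here are RHOB, GEM, RND3, THBS1, CYR61, CTGF, AKAP12, AMOTL2 and TNS4, 9 of the 19128 gene symbols in a table of expression values from HT-29 cells. They were picked by name as cytoskeletal and adhesion genes known as targets of SRF and YAP, with results of the same libraries in view. The record does not say which values chose them, so their levels in those libraries are given as a description, with no test. Each of the 9 symbols stood on 1 line of the table, and all 9 passed the filter of a mean of at least 1 FPKM (fragments per transcript length and library depth) in at least 1 group, as did 10364 symbols in all. No file measures binding of SRF or YAP, so the name of the set was not checked by such data.

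HT-29 is an established human colorectal adenocarcinoma line. Polyadenylated RNA was sequenced in 12 libraries of 2 experiments. TBZ is a mixture of BV6 (2 µM), zVAD-fmk (30 µM) and TNFa (20 ng/mL). BV6 works against the cellular inhibitors of apoptosis and zVAD-fmk is a caspase inhibitor; the mixture is used to bring about necroptosis, a lytic form of cell death. The first experiment has 1 library for each of 4 groups: parental cells with DMSO, parental cells with TBZ for 4 h, cells carrying a short hairpin RNA against MLKL (shMLKL) with DMSO, and shMLKL cells with TBZ for 12 h. The second experiment has 2 libraries for each of 4 groups: cells carrying a hairpin against GFP (shGFP), a sequence the cells do not have, with DMSO or with TBZ for 5 h, and shMLKL cells with DMSO or with TBZ for 5 h. MLKL is the pseudokinase that permeabilises the plasma membrane in necroptosis. The labels do not say whether a hairpin line was 1 clone or a pool, nor whether the 2 libraries of a group are from different cultures; the spread between them, and p-values from it, may thus be technical.

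SRF is a transcription factor that binds the CArG box, and its cofactors of the MRTF family enter the nucleus when actin goes from its monomeric to its filamentous form. YAP and its relative TAZ are held in the cytoplasm by the Hippo kinases and, once in the nucleus, act through TEAD proteins, which bind the letters GGAATG. Both routes respond to cell shape, tension and adhesion, and they share targets such as CYR61 and CTGF. In epithelial cells of the colon these targets are known to respond to injury and regeneration.

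In both experiments the targeted gene was lower in each library labelled shMLKL than in any control library of the same experiment. In the second, MLKL stood at 3.95 and 3.89 FPKM in shGFP with DMSO and at 1.98 and 2.03 FPKM in shGFP with TBZ. In shMLKL it stood at 0.606 and 0.545 FPKM with DMSO and at 0.651 and 0.395 FPKM with TBZ. In the first, its RefSeq transcripts summed to 6.31 and 6.16 FPKM in parental cells with DMSO and TBZ, and to 0.854 and 2.15 FPKM in shMLKL with DMSO and TBZ. Over all transcripts of the locus the sums were 8.75 and 34.7 FPKM in parental cells and 2.205 and 3.55 FPKM in shMLKL. Relative depth lay between 82.9 and 100% of the deepest library in the second experiment and between 82.3 and 100% in the first. Summed over the list, fibroblast markers stood at 0.066 to 0.518 FPKM and endothelial markers at 0.00678 to 0.0837 FPKM in the 8 libraries of the second experiment. Leukocyte markers summed to 521 to 658 FPKM, nearly all of it LYZ (lysozyme), and to 0.339 to 1.57 FPKM without LYZ, a split made after the values were seen. Of the 11 colon epithelium markers 8 reached 1 FPKM in a group, EPCAM, CDH1, KRT20 and LGALS4 among them (6 without KRT8 and KRT18), whereas CDX1 stood at no more than 0.0774 FPKM and CDX2 at no more than 0.208 FPKM. KRT8 and KRT18 were listed at 0 in 7 of 8 libraries and at 694 and 535 FPKM in shMLKL with DMSO, replicate 2, so a listed 0 in this table need not be a true level. None of the 9 genes (0 of 9) was listed at 0 in a library, nor was any gene of the pathway lists below at 0 in one library and at 1 FPKM or more in another.

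The sequences before the transcript starts are shown because they hold, or lack, the letters that SRF and TEAD proteins bind. RefSeq promoter windows (GRCh38.p14) were matched for 6 of the 9 genes, in 10 windows, of which the 250 bases before the start were searched on both strands for the CArG box, for GGAATG, for the AP-1 site TGANTCA and for TGACGTCA (a CRE). GGAATG was found in 4 of the 10 windows, belonging to 4 genes, and the CArG box in 3 windows of 2 genes. The 2 windows of RND3 overlap and hold the same CArG box. TGANTCA and TGACGTCA were found in 0 of the 10 windows. Of all 35116 windows, 11.9% hold GGAATG, 1.16% the CArG box, 6.57% TGANTCA and 1.65% TGACGTCA. The windows printed here read 5′ to 3′ on the strand of the gene, with the matched letters in capitals and everything else in lower case. AMOTL2 has GGAATG on the other strand, so that it reads CATTCC.
CTGF, chr6:131951373-131951622, minus strand: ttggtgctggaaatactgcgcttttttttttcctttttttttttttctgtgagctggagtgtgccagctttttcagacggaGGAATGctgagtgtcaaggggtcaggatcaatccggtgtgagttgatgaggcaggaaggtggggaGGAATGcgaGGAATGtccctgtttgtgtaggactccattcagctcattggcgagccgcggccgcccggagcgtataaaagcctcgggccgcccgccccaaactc
THBS1, chr15:39580829-39581078, plus strand: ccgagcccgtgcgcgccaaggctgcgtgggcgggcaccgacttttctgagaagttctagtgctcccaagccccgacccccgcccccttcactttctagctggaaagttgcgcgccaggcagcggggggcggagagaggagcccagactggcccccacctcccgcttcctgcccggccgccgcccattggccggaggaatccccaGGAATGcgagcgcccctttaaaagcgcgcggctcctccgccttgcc
AMOTL2, second window, chr3:134374448-134374697, minus strand: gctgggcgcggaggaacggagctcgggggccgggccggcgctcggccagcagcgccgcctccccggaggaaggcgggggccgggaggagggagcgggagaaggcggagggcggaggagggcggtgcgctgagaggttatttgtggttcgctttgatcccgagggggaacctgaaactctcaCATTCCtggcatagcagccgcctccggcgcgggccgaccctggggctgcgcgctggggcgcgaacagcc
RND3, first window, chr2:150487696-150487945, minus strand: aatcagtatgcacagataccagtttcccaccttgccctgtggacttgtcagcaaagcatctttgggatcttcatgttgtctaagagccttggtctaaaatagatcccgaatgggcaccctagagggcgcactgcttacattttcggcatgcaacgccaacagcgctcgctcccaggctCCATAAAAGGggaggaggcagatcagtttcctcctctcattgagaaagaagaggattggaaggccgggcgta
AKAP12, first window, chr6:151239717-151239966, plus strand: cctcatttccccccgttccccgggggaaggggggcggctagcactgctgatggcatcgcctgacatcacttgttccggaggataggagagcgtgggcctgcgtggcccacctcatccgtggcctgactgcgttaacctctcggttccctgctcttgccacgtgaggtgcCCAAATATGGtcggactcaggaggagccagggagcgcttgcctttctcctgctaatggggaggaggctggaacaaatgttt
AKAP12, second window, chr6:151325281-151325530, plus strand: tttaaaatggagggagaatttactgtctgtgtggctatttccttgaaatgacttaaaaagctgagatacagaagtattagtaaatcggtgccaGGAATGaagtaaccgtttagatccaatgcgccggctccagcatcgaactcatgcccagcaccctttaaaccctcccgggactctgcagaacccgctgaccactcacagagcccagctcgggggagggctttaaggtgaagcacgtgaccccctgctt
CTGF holds GGAATG at 3 places, which begin at -169, -104 and -95 counted from the transcript start. In THBS1 the only match begins at -46 and in AMOTL2 at -69. The CArG box of RND3 begins at -72 and that of the first AKAP12 window at -81. The RHOB window held none of the 4 motifs. Such a match describes letters and is not evidence of binding.

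With shGFP cells, TBZ for 5 h was accompanied by higher levels of 8 of the 9 genes and by a lower level of TNS4, with no overlap between the libraries of the groups. Over all genes tested, 26.6% stood higher and 54.2% lower without overlap in this comparison. The median log2 difference of the 9 genes was 2.32, against -0.12 over all genes tested. In shMLKL cells 3 of the 9 were higher after TBZ without overlap (RHOB, GEM and THBS1), 5 were lower and AMOTL2 overlapped. There, 34.3% of all genes stood higher and 34.4% lower without overlap. Since the genes were chosen with these libraries in view, nothing is read from these shares. A log2 difference here and below is taken between means of log2(FPKM + 1), which makes the change of a gene at low levels look smaller than it is, and has the SE of a limma fit over the 8 libraries. RNA came from whole cultures, so a change in the RNA per cell cannot be told apart from a change in which cells remained.

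**Figure D1:**
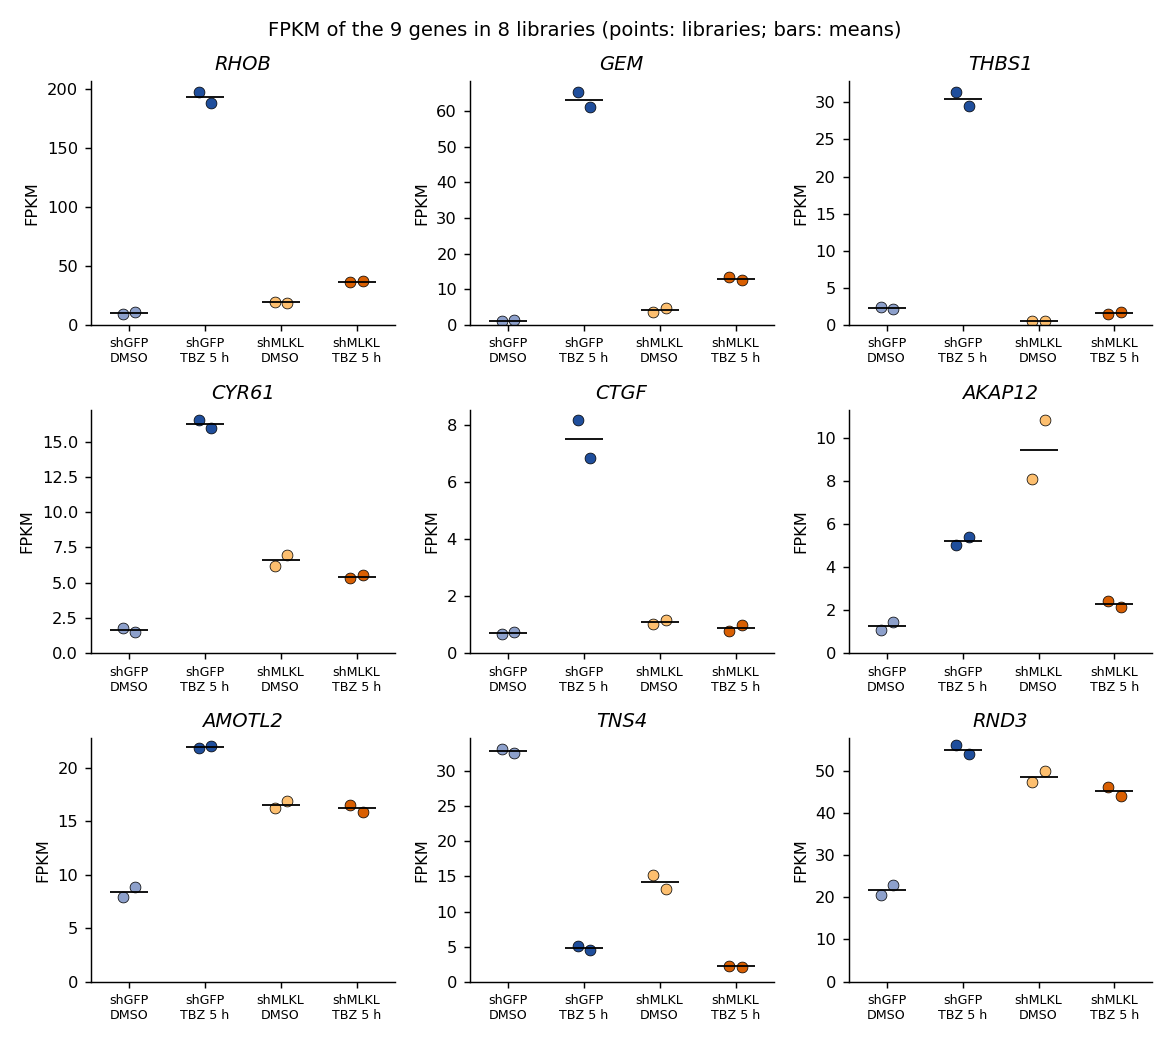
FPKM (y axis, from 0, a scale of its own for each gene) of the 9 genes in the 8 libraries of the second experiment, by group (x axis); points are libraries and bars are group means of 2. The shGFP libraries with TBZ are the highest for 7 genes, AKAP12 is highest in shMLKL with DMSO, and TNS4 is highest in shGFP with DMSO.

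RHOB, GEM and RND3 are small GTPases or relatives of them. RHOB is a small GTPase of endosomes and the plasma membrane that is known as an immediate early gene of stress. It lies on chr2:20646835-20649201 (hg19, plus strand) in 1 exon. RHOB stood at 9.53 and 11.2 FPKM in shGFP with DMSO and at 198 and 189 FPKM in shGFP with TBZ. In shMLKL it stood at 19.4 and 18.8 FPKM with DMSO and at 36.1 and 37.2 FPKM with TBZ. The 4 groups did not overlap, and shGFP with TBZ stood far above the rest. TBZ was thus accompanied by an 18.7-fold higher mean in shGFP (log2 difference 4.10, SE 0.07) and a 1.92-fold higher mean in shMLKL (0.90, SE 0.07).

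GEM, a GTPase of the RGK family, is known to inhibit voltage-gated calcium channels. It lies on chr8:95261485-95274547 (hg19, minus strand), with 5 exons in each of its 2 RefSeq transcripts. The libraries of shGFP gave 1.02 and 1.30 FPKM with DMSO and 65.3 and 61.1 FPKM with TBZ. Those of shMLKL gave 3.49 and 4.69 FPKM with DMSO and 13.3 and 12.6 FPKM with TBZ. The order of the groups was that of RHOB, again without overlap. Its mean was 54.5-fold higher after TBZ in shGFP (log2 difference 4.90, SE 0.11), the largest of the 9 and rank 5 of 10364 genes tested, and 3.17-fold higher in shMLKL (1.47, SE 0.11).

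RND3 is a small GTPase that does not hydrolyse GTP and is known to oppose RHOA. It lies on chr2:151324707-151344209 (hg19, minus strand), and its first window, printed above, holds a CArG box. In shGFP the libraries stood at 20.4 and 22.9 FPKM with DMSO and at 55.9 and 53.8 FPKM with TBZ. In shMLKL they stood at 47.2 and 49.8 FPKM with DMSO and at 46.2 and 43.9 FPKM with TBZ. shGFP with DMSO was therefore the low group, and the other 3 groups lay within 43.9 to 55.9 FPKM. After TBZ the mean was 2.53-fold higher in shGFP (log2 difference 1.30, SE 0.06), whereas in shMLKL the difference was -0.10 (SE 0.06).

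Among relatives of these GTPases, RND1, of the same Rnd subfamily as RND3, had the largest rise with TBZ in shGFP. RND1 went from 2.03 ± 0.709 to 30.6 ± 1.88 FPKM in shGFP (SD, n = 2; log2 difference 3.4, BH-adjusted p by limma = 1.93e-06). In shMLKL it went from 6.44 ± 0.939 to 19.2 ± 1.34 FPKM (1.44, adjusted p = 0.00032). The difference between the TBZ effects was -1.96 (BH-adjusted p by limma = 0.00113). RHOF, a GTPase of filopodia, rose by 1.37 in shGFP and by 0.42 in shMLKL on the log2 scale (BH-adjusted p by limma = 8.28e-06 and 0.00594). Its difference between the TBZ effects was -0.95 (BH-adjusted p by limma = 0.0017). RHOV rose in both lines as well, by 1.33 and 1.02 (BH-adjusted p by limma = 3.93e-05 and 0.000282). It stood at 0.819 and 0.724 FPKM in shGFP and shMLKL with DMSO. RHOV thus passed the filter only through its TBZ groups, which favoured a rise in advance, and its calls are a description only. RHOU, in contrast, fell by 1.07 in shGFP and by 0.54 in shMLKL (BH-adjusted p by limma = 3.66e-05 and 0.00196). For RHOU the difference between the TBZ effects was 0.53 (BH-adjusted p by limma = 0.0201). RHOD fell by 0.64 in shGFP and RHOC by 0.14 in shMLKL (BH-adjusted p by limma = 0.0129 and 0.0341). RHOA, a GTPase of stress fibres, stood at 131 ± 0.480 and 128 ± 0.266 FPKM in shGFP with DMSO and with TBZ (log2 difference -0.03, BH-adjusted p by limma = 0.37). The RGK relatives REM1, REM2 and RRAD did not pass the filter.

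THBS1, CYR61 and CTGF encode secreted proteins of the matrix around cells. THBS1 (thrombospondin 1) binds CD36 and CD47, and is known to activate latent TGF-beta. It lies on chr15:39873280-39889668 (hg19, plus strand) in 22 exons. In shGFP the libraries gave 2.36 and 2.07 FPKM with DMSO and 31.3 and 29.5 FPKM with TBZ. In shMLKL they gave 0.554 and 0.557 FPKM with DMSO and 1.51 and 1.66 FPKM with TBZ. Both shMLKL groups stood below both shGFP groups. The mean after TBZ was 13.7-fold higher in shGFP (log2 difference 3.29, SE 0.07) and 2.86-fold higher in shMLKL (0.73, SE 0.07).

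CYR61 (also CCN1) is a matricellular protein that binds integrins and is a standard reporter of YAP activity. It lies on chr1:86046444-86049648 (hg19, plus strand) in 5 exons. CYR61 stood at 1.82 and 1.54 FPKM in shGFP with DMSO and at 16.5 and 15.9 FPKM in shGFP with TBZ. In shMLKL it stood at 6.20 and 6.98 FPKM with DMSO and at 5.33 and 5.52 FPKM with TBZ. The shMLKL groups lay between those of shGFP. The mean was 9.67-fold higher after TBZ in shGFP (log2 difference 2.69, SE 0.08) and 1.22-fold lower in shMLKL (-0.24, SE 0.08).

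CTGF (also CCN2), a close relative of CYR61 and the gene with 3 GGAATG matches above, promotes matrix production. It lies on chr6:132269317-132272518 (hg19, minus strand) in 5 exons. Its libraries in shGFP gave 0.679 and 0.737 FPKM with DMSO and 8.18 and 6.87 FPKM with TBZ. In shMLKL they gave 1.01 and 1.15 FPKM with DMSO and 0.774 and 0.977 FPKM with TBZ. The 2 libraries of shGFP with TBZ stood apart, and the other 6 lay between 0.679 and 1.15 FPKM. The mean was 10.6-fold higher after TBZ in shGFP (log2 difference 2.32, SE 0.10), and the difference in shMLKL was -0.15 (SE 0.10; -0.07 without shMLKL with TBZ, replicate 1, and -0.23 without replicate 2). The other CCN genes, NOV, WISP1, WISP2 and WISP3, did not pass the filter, and nor did THBS2 and THBS4.

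AKAP12, AMOTL2 and TNS4 are scaffold proteins. AKAP12 (gravin) anchors protein kinases A and C and is known as a suppressor of SRC signalling. It lies on chr6:151561134-151679694 (hg19, plus strand). The shGFP libraries stood at 1.07 and 1.46 FPKM with DMSO and at 5.04 and 5.40 FPKM with TBZ. Those of shMLKL stood at 8.10 and 10.9 FPKM with DMSO and at 2.43 and 2.16 FPKM with TBZ. AKAP12 was the only one of the 9 whose highest group was shMLKL with DMSO. After TBZ its mean was 4.12-fold higher in shGFP (log2 difference 1.46, SE 0.14) and 4.13-fold lower in shMLKL (-1.66, SE 0.14).

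AMOTL2 is an angiomotin that binds YAP at cell junctions and holds it out of the nucleus, and is itself a YAP target. It lies on chr3:134074187-134094259 (hg19, minus strand). AMOTL2 stood at 7.94 and 8.83 FPKM in shGFP with DMSO and at 21.8 and 22.1 FPKM in shGFP with TBZ. In shMLKL it stood at 16.2 and 16.9 FPKM with DMSO and at 16.5 and 15.9 FPKM with TBZ, 2 groups that overlapped. The mean was 2.62-fold higher after TBZ in shGFP (log2 difference 1.29, SE 0.06), and in shMLKL the difference was -0.03 (SE 0.06). The relatives AMOT and AMOTL1 did not pass the filter.

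TNS4 (Cten) is a short tensin of focal adhesions that lacks the actin-binding part of other tensins and is often high in colorectal tumours. It lies on chr17:38632080-38657854 (hg19, minus strand). In shGFP the libraries gave 33.2 and 32.6 FPKM with DMSO and 5.09 and 4.52 FPKM with TBZ. In shMLKL they gave 15.2 and 13.2 FPKM with DMSO and 2.31 and 2.07 FPKM with TBZ. TNS4 was low after TBZ in both lines, and in each condition lower in shMLKL. The mean after TBZ was 6.84-fold lower in shGFP (log2 difference -2.55, SE 0.08) and 6.48-fold lower in shMLKL (-2.25, SE 0.08). TNS2, a larger tensin, also fell in both lines, by 0.94 in shGFP and by 0.49 in shMLKL on the log2 scale (BH-adjusted p by limma = 0.000216 and 0.0082). TNS3 stood at 8.17 ± 0.0190 and 7.41 ± 0.403 FPKM in shGFP with DMSO and TBZ (log2 difference -0.13, BH-adjusted p by limma = 0.182).

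**Figure D2:**
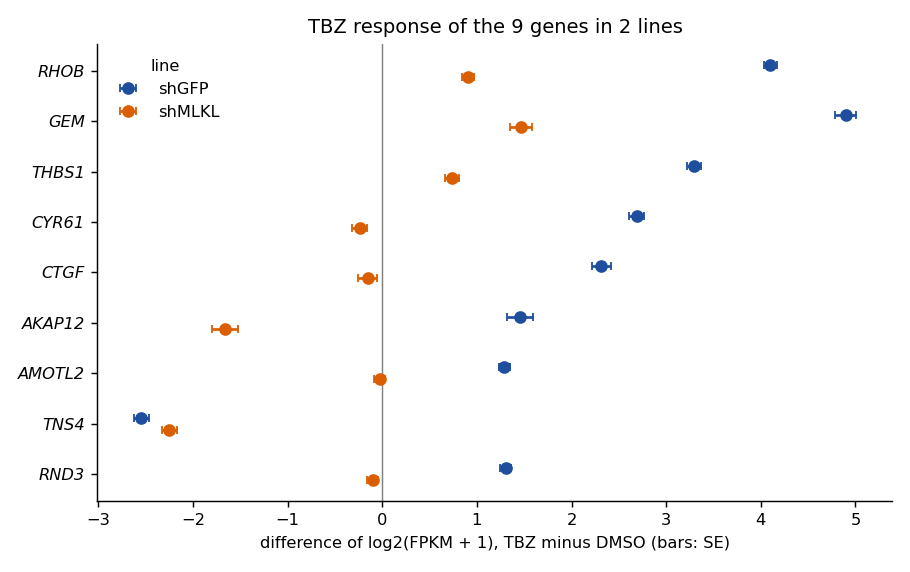
Difference of log2(FPKM + 1) between TBZ and DMSO (x axis) of the 9 genes (y axis) in shGFP (blue) and shMLKL (orange), with SE from the fit over 8 libraries. TNS4 is low by a similar amount in both lines (-2.55 and -2.25), whereas AKAP12 lies on opposite sides of 0 (1.46 and -1.66).

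Set side by side, the TBZ effect was lower in shMLKL than in shGFP for 8 genes, with -3.43 for GEM (SE 0.16), -3.20 for RHOB (SE 0.09), -3.12 for AKAP12 (SE 0.19), -2.93 for CYR61 (SE 0.11), -2.56 for THBS1 (SE 0.10), -2.47 for CTGF (SE 0.14), -1.41 for RND3 (SE 0.08) and -1.32 for AMOTL2 (SE 0.08) on the log2 scale. For TNS4 it was 0.30 (SE 0.12). The median of all genes tested was 0.10 in this difference, because it was -0.12 for TBZ in shGFP and -0.00 in shMLKL. These differences share all 4 DMSO libraries with the values by line above, and part of each is the level under DMSO. With DMSO alone, 7 of the 9 genes stood higher in shMLKL than in shGFP and THBS1 and TNS4 lower, without overlap. In that comparison 25.3% of all genes stood higher and 57.4% lower without overlap, and the median of all genes was -0.16. AKAP12 was 7.47-fold higher in shMLKL (log2 difference 2.2, SE 0.14), CYR61 3.93-fold (1.503, SE 0.077), GEM 3.52-fold (1.23, SE 0.11) and RND3 2.24-fold (1.13, SE 0.06). AMOTL2 was 1.97-fold higher (0.90, SE 0.06), RHOB 1.85-fold (0.83, SE 0.07) and CTGF 1.53-fold (0.29, SE 0.10; 0.45 with library medians set equal). TNS4 was 2.32-fold lower (-1.16, SE 0.08) and THBS1 3.99-fold lower (-1.05, SE 0.07).

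With TBZ, all 9 genes stood lower in shMLKL than in shGFP, without overlap, where 45.3% of all genes stood lower and 31.0% higher. THBS1 was 19.2-fold lower (log2 difference -3.60, SE 0.07), CTGF 8.59-fold (-2.18, SE 0.10), RHOB 5.28-fold (-2.37, SE 0.07) and GEM 4.88-fold (-2.20, SE 0.11). CYR61 was 2.99-fold lower (-1.42, SE 0.08), AKAP12 2.28-fold (-0.92, SE 0.14) and TNS4 2.19-fold (-0.86, SE 0.08). AMOTL2 and RND3 differed least, at 1.36-fold (-0.42, SE 0.06) and 1.22-fold (-0.28, SE 0.06). This comparison shares its libraries with those of TBZ against DMSO.

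Across the 8 libraries the 9 genes did not follow 1 course. RHOB and GEM were the most alike (Pearson r of log2(FPKM + 1) = 0.989), followed by AMOTL2 and RND3 (0.984). AKAP12 and THBS1 had r = 0.051. TNS4 ran against the others, with r between -0.777 (GEM) and -0.149 (AKAP12). Among 2039 other genes whose values spanned at least 1 on the log2 scale, the pair most like RHOB were CSRNP1 and ARL14 (r = 0.998 and 0.997), and for GEM KDM6B and ATF3 (0.999 and 0.996). For CTGF they were TRIB1 and NR4A1 (0.998 and 0.996), for THBS1 NCOA7 and TMEM107 (0.997 and 0.992), and for CYR61 EPHA2 and PHLDA1 (0.986 and 0.984). For AMOTL2 they were JAG1 and PLK2 (0.987 and 0.984), and for RND3 DNAJB1 and again JAG1 (0.997 and 0.996). TNS4 was most like LZTS2 and MYC (0.997 and 0.996). AKAP12 had no neighbour as close, GDF15 coming nearest (0.930). These values describe 8 points in 4 groups that share libraries, and the highest of many candidates.

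The other genes of the pathways were tested with limma on log2(FPKM + 1) over the 8 libraries, with a call where the p adjusted by Benjamini-Hochberg over all genes tested was under 0.05. Of 34 further SRF and MRTF targets, genes of actin filaments and adhesions for the most part, 27 passed the filter. With TBZ 12 of the 27 rose and 6 fell in shGFP, where 19.1% of all genes tested rose and 37.3% fell. The list's median was 0.13, against -0.12 over all genes. TUFT1 rose from 7.95 ± 0.108 to 24.97 ± 0.0745 FPKM (SD, n = 2; log2 difference 1.54, BH-adjusted p by limma = 6.45e-07). VCL (vinculin, which ties integrins to actin) rose from 15.9 ± 0.768 to 40.4 ± 0.0105 FPKM (1.30, adjusted p = 4.26e-07 by limma). ACTG1 (cytoplasmic gamma actin) rose from 361 ± 20.6 to 752 ± 37.8 FPKM (1.06, BH-adjusted p by limma = 2.81e-06), though its near copies among actin genes and pseudogenes make its reads uncertain to assign. ZYX (zyxin) rose by 0.80 and CNN2 (calponin 2) fell by 0.54 on the log2 scale (BH-adjusted p by limma = 6.27e-05 and 7.47e-05). TPM2 and ACTN1 fell by 0.43 and 0.25. Without shGFP with TBZ, replicate 1, the fall was called for 3 of the 27, and no longer for TPM2 (-0.38).

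In shMLKL 5 of the 27 SRF and MRTF targets rose with TBZ and 9 fell, where 20.0% of all genes tested rose and 17.6% fell. The list's median was -0.08, against -0.00 over all genes. VCL and TUFT1 rose here too, by 0.63 and 0.59 on the log2 scale (BH-adjusted p by limma = 3.83e-05 and 0.0002). TAGLN (transgelin) rose from 1.04 ± 0.361 to 2.201 ± 0.124 FPKM (0.67, BH-adjusted p by limma = 0.00718). FHL2, a LIM protein that binds SRF, fell from 35.5 ± 0.151 to 19.4 ± 1.47 FPKM (-0.85, BH-adjusted p by limma = 6.62e-05). ZYX, which rose in shGFP, fell from 21.9 ± 0.188 to 13.4 ± 0.402 FPKM (-0.68, BH-adjusted p by limma = 0.00027). CNN2 fell by 0.73 and ACTN4 (alpha actinin 4) by 0.38. Without shMLKL with DMSO, replicate 2, the rise was called for 3 of the 27.

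The test of the difference between the TBZ effects called 11 of the 27 lower in shMLKL than in shGFP and 0 higher (limma; 1 was higher at an unadjusted p under 0.05, and 1 was called without shMLKL with DMSO, replicate 2). In that test 7.66% of all genes were lower and 14.6% higher. The largest were FHL2 (-1.5, SE 0.09, BH-adjusted p by limma = 7.29e-05), ZYX (-1.48, SE 0.10, adjusted p = 8.98e-05), ACTG1 (-1.17, SE 0.07, adjusted p = 7.29e-05) and TUFT1 (-0.95, SE 0.08, adjusted p = 0.000306). With DMSO 14 of the 27 stood higher in shMLKL and 7 lower, against 18.3% and 44.8% of all genes tested. ACTG1 was higher there by 1.46, ITGB1 (integrin beta 1) by 0.90 and FHL2 by 0.77 on the log2 scale (BH-adjusted p by limma = 1.69e-06, 2.01e-06 and 5.82e-05).

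Of 20 further YAP and TEAD targets 14 passed the filter. With TBZ 5 of the 14 rose and 4 fell in shGFP, against 19.1% and 37.3% of all genes tested, and the list median was 0.01 against -0.12. In shMLKL 3 rose and 7 fell, against 20.0% and 17.6%, and the list median was -0.17 against -0.00. The 3 that rose in shMLKL are close to the share over all genes. F3 (tissue factor) rose from 1.25 ± 0.0344 to 13.8 ± 0.764 FPKM in shGFP and from 1.70 ± 0.127 to 8.65 ± 0.427 FPKM in shMLKL (log2 differences 2.72 and 1.84, BH-adjusted p by limma = 1.13e-07 and 1.67e-06). NUAK2, a kinase of the AMPK family, rose from 0.438 ± 0.0892 to 4.73 ± 0.253 FPKM in shGFP and in shMLKL from 0.211 ± 0.0941 to 2.75 ± 0.200 FPKM (2.00 and 1.63, BH-adjusted p by limma = 2.47e-06 and 1.48e-05). NUAK2 passed the filter only through its TBZ groups, which favoured a rise in advance. Its calls, which are part of the counts above, are therefore a description only. GADD45A, a gene of growth arrest and DNA damage, rose from 52.0 ± 3.61 to 154 ± 4.97 FPKM in shGFP and from 101 ± 5.89 to 135 ± 3.78 FPKM in shMLKL (1.55 and 0.42, BH-adjusted p by limma = 7.29e-07 and 0.00126). ASAP1 rose by 0.82 in shGFP.

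Other YAP and TEAD targets were lower after TBZ. ARHGEF17 fell by 0.72 in shGFP and by 0.50 in shMLKL, and DOCK5 fell by 0.32 and 0.50 (BH-adjusted p by limma = 0.000495, 0.00449, 0.000721 and 0.000141). ARHGEF17 stood at 0.923 and 0.764 FPKM in shGFP and shMLKL with TBZ. It thus passed the filter only through its DMSO groups, which favoured a fall in advance, and its calls are a description only. NT5E (CD73) fell by 0.40 in shGFP and by 0.38 in shMLKL. TGFB2 fell by 0.29 in shGFP (BH-adjusted p by limma = 0.0274), which was no longer called with library medians set equal (-0.23), with quantile normalization (-0.13), or without either shGFP library with DMSO (-0.29) or replicate 1 of shGFP with TBZ (-0.22), and by 0.54 in shMLKL. AXL, a receptor tyrosine kinase, fell from 6.08 ± 0.377 to 3.36 ± 0.321 FPKM in shMLKL (-0.70, BH-adjusted p by limma = 0.000442).

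The difference between the TBZ effects was called for 5 of the 14, all lower in shMLKL, and 0 were higher in limma, also at an unadjusted p under 0.05 (over all genes tested, 7.66% were lower and 14.6% higher). They include GADD45A (-1.13, SE 0.08, BH-adjusted p by limma = 0.000147), F3 (-0.88, SE 0.10, adjusted p = 0.00117) and AXL (-0.66, SE 0.11, adjusted p = 0.0072). LATS2, the Hippo kinase that YAP itself induces, stood at 3.19 ± 0.00633 and 6.11 ± 0.310 FPKM in shGFP with DMSO and TBZ and at 4.98 ± 0.0561 and 4.14 ± 0.192 FPKM in shMLKL (-0.98, SE 0.09, BH-adjusted p by limma = 0.000386). With DMSO 9 of the 14 were higher in shMLKL and 1 lower, against 18.3% and 44.8% of all genes tested. None of the 14 (0) had the lower call once library medians were set equal or shGFP with DMSO, replicate 1, was left out. AXL was higher there by 1.24, GADD45A by 0.94, ASAP1 by 0.74 and DOCK5 by 0.61 on the log2 scale (BH-adjusted p by limma = 1.52e-05, 1.32e-05, 4.38e-05 and 2.77e-05).

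**Figure D3:**
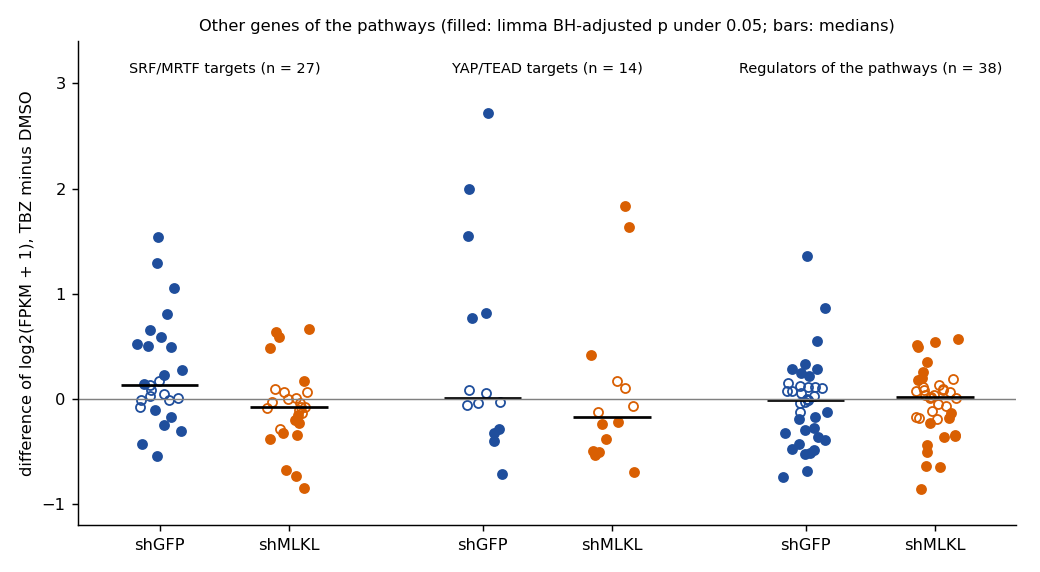
Difference of log2(FPKM + 1) between TBZ and DMSO (y axis) for the genes of the pathway lists that passed the filter, in shGFP (blue) and shMLKL (orange); filled points had a limma BH-adjusted p under 0.05 and bars are list medians, with the points spread sideways for sight. SRF and MRTF targets have their median at 0.13 in shGFP and at -0.08 in shMLKL, and YAP and TEAD targets at 0.01 and -0.17.

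Regulators of the pathways made up the third list, of which 38 of 41 passed the filter. With TBZ 8 of the 38 rose and 15 fell in shGFP, close to the 19.1% and 37.3% of all genes tested (with library medians set equal, 13 and 11, against 22.6% and 28.2%). In shMLKL 8 rose, close to the 20.0% of all genes, and 11 fell, against 17.6%. SRF itself stood at 5.52 and 5.25 FPKM in shGFP with DMSO and at 15.1 and 15.8 FPKM with TBZ. In shMLKL it stood at 2.35 and 2.44 FPKM with DMSO and at 4.07 and 3.78 FPKM with TBZ. It thus rose in both lines, by 1.36 in shGFP and by 0.54 in shMLKL on the log2 scale (BH-adjusted p by limma = 1.81e-06 and 0.000441), and the rise was smaller in shMLKL (-0.83, SE 0.09, adjusted p = 0.000793). Under DMSO SRF was lower in shMLKL by 0.91 (SE 0.06, BH-adjusted p by limma = 1.81e-05). Of its 27 listed targets 14 were higher there and 7 lower, against 18.3% and 44.8% of all genes tested.

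SAV1, the scaffold of the Hippo kinases, rose from 9.47 ± 0.133 to 18.1 ± 1.64 FPKM in shGFP (log2 difference 0.87, BH-adjusted p by limma = 4.27e-05). MAP4K4 and WWC1, both of which activate LATS kinases, rose in both lines, by 0.55 and 0.33 in shGFP and by 0.50 and 0.51 in shMLKL (BH-adjusted p by limma = 5e-05, 0.000556, 0.00015 and 0.000113). TEAD2 and TEAD3, through which YAP acts, fell in both lines, by 0.75 and 0.69 in shGFP and by 0.51 and 0.86 in shMLKL (BH-adjusted p by limma = 4.02e-05, 0.000131, 0.000517 and 7.18e-05). ARHGAP35 and ARHGEF1, a brake and an activator of RHOA, fell by 0.52 each in shGFP. ARHGEF2 (GEF-H1) fell by 0.65 and TAOK3 rose by 0.57 in shMLKL. TEAD4 and MOB1A were lower in shMLKL under DMSO, by 0.66 and 0.65. The difference between TBZ effects was called higher for TAOK2 (0.57, BH-adjusted p by limma = 0.0193) and TAOK3 (0.35, adjusted p = 0.0227) and lower for 4 genes, SAV1 among them (-0.51, adjusted p = 0.0115). These 2 and 4 of 38 stand beside 14.6% higher and 7.66% lower over all genes tested. Both higher calls were lost in a fit of quantile-normalized values, and equal medians left 1 higher, with 7 lower. With single libraries left out 0 to 3 were higher (0 without replicate 1 of shGFP with DMSO or replicate 2 of shMLKL with DMSO) and 2 to 4 lower (2 without any one library other than replicate 1 of shGFP with TBZ and replicate 1 of shMLKL with DMSO). YAP1, named for its role and after its values were seen, fell from 37.8 ± 1.72 to 29.3 ± 1.13 FPKM in shGFP and in shMLKL from 35.6 ± 1.12 to 30.3 ± 2.12 FPKM (-0.36 and -0.23, BH-adjusted p by limma = 0.00156 and 0.0198).

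How the genes of a contrast divide into higher and lower depended on the scaling of the libraries. In shGFP 33.9% of all called genes were higher after TBZ, and 44.5% with library medians set equal. For the difference between TBZ effects the share was 65.6% and 39.0%, and for the lines under DMSO 29.04% and 53.07%. With equal medians the SRF and MRTF targets counted 15 higher and 4 lower in shGFP, 0 higher and 12 lower in the difference of effects, and 17 higher and 7 lower under DMSO. The YAP and TEAD targets counted 5 and 3, 0 and 6, and 11 and 0. With equal medians 22.6% of all genes tested rose and 28.2% fell in shGFP, 6.72% were higher and 10.5% lower in the difference of effects, and 30.1% were higher and 26.6% lower under DMSO. For the 9 genes, 0 of the log2 differences whose groups did not overlap turned sign with equal medians or quantile normalization.

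The first experiment gives a second look at the 9 genes, in parental cells at 4 h and in shMLKL cells at 12 h, with 1 library per group and so no replicate check and no test. Its transcript lists were assembled separately in each library. Values are sums over the RefSeq transcripts of a gene, with the sum over all transcripts of the locus, assembled ones included, beside it where the sums part. In parental cells the RefSeq sums of 8 genes were higher after TBZ for 4 h, each by a log2 difference of at least 1, and that of TNS4 was lower by 2.63. Over all genes with 1 FPKM or more, 9.54% were higher by at least 1 and 13.8% lower, and the median difference was -0.23. RHOB stood at 43.9 FPKM with DMSO and at 417 FPKM with TBZ. GEM stood at 2.07 and 124 FPKM, CYR61 at 3.34 and 25.4 FPKM, and CTGF at 0.881 and 3.80 FPKM. AKAP12 stood at 1.89 and 12.1 FPKM, RND3 at 32.8 and 69.4 FPKM, and TNS4 at 42.4 and 6.02 FPKM (49.1 and 7.35 FPKM over the locus).

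THBS1 stood at 2.56 FPKM with DMSO and at 10.6 FPKM with TBZ for 4 h, or 12.9 FPKM over the locus. AMOTL2 was the exception: its RefSeq sums were 7.22 and 31.6 FPKM, but over the locus it stood at 34.7 and 31.6 FPKM. With DMSO 2 assembled transcripts held most of that locus and with TBZ none (0) was listed, so the log2 difference was 1.99 by one sum and -0.13 by the other.

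In shMLKL cells, RHOB stood at 17.5 FPKM with DMSO and at 45.3 FPKM after TBZ for 12 h, and GEM at 0.767 and 12.0 FPKM. These were the 2 of the 9 with a log2 difference of at least 1 (1.32 and 2.88), where 9.52% of all genes were higher by at least 1 and 11.1% lower. By RefSeq sums 2 of the 9 were lower by at least 1, THBS1 (-1.24) and RND3 (-1.12). Over the locus 1 was, TNS4 (-1.42). CYR61 stood at 1.722 and 3.499 FPKM, CTGF at 0.365 and 0.491 FPKM, and AKAP12 at 0.228 and 0.269 FPKM. TNS4 stood at 14.1 and 11.3 FPKM, or at 37.5 and 13.4 FPKM over the locus. For 3 genes the direction hung on the sum: THBS1 (2.23 and 0.367 FPKM, or 2.23 and 2.57 FPKM over the locus), AMOTL2 (14.2 and 11.6 FPKM, or 31.0 and 37.5 FPKM) and RND3 (41.3 and 18.5 FPKM, or 41.3 and 45.0 FPKM). Times and lines differ between the experiments, so the values stand beside those at 5 h without a comparison. RND1 went from 4.21 to 72.4 FPKM in parental cells and from 1.54 to 8.65 FPKM in shMLKL, while SRF stood at 13 and 28.4 FPKM in parental cells and at 10.2 and 13.4 FPKM in shMLKL.

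**Figure D4:**
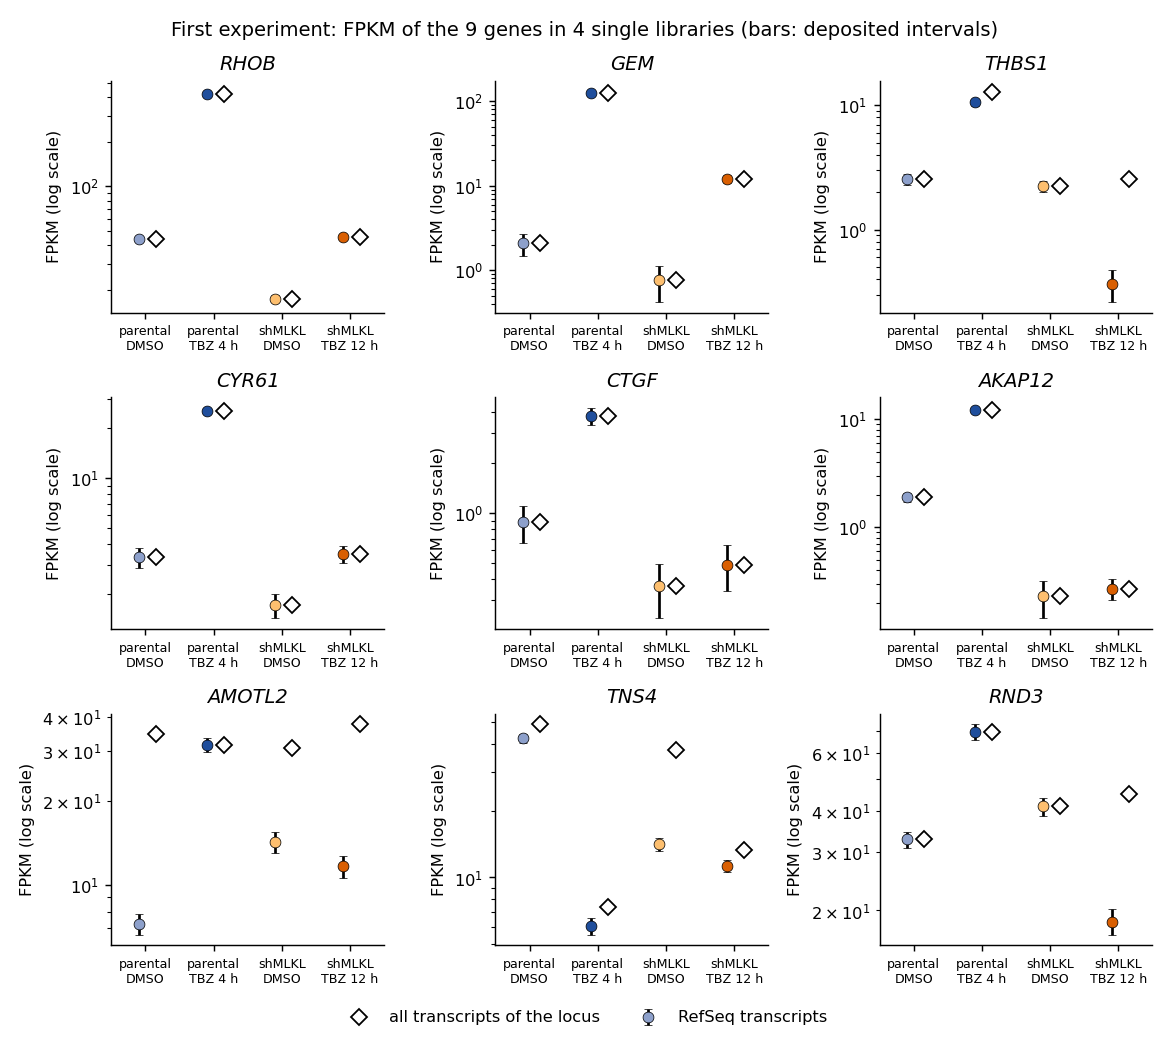
FPKM (y axis, log scale, a range of its own for each gene) of the 9 genes in the 4 single libraries of the first experiment (x axis); circles are sums over RefSeq transcripts with the intervals deposited by the authors, and diamonds are sums over all transcripts of the locus. The 2 sums part for AMOTL2, TNS4, THBS1 and RND3, and coincide in all 4 libraries for the other 5 genes.

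The transcript lists also give an estimated FPKM for each transcript of a gene, and its fraction of the locus. The percentages here are these listed fractions, which need not equal a transcript's share of the summed FPKM. GEM has 2 RefSeq transcripts, and NM_005261 held 38.5% of the locus in parental cells with DMSO and 83.4% with TBZ. In shMLKL cells it held 31.4% with DMSO and 86.0% after 12 h of TBZ. In FPKM, NM_005261 went from 0.771 (deposited interval 0.501 to 1.04) to 102 (97.2 to 107) in parental cells, while NM_181702 went from 1.30 (0.968 to 1.64) to 21.6 (19.9 to 23.4). The share thus moved the same way in both lines, in single libraries. In shMLKL with DMSO it rests on low values, 0.231 FPKM (0.0852 to 0.377) for NM_005261 and 0.536 FPKM (0.334 to 0.737) for NM_181702. AKAP12 has a long RefSeq transcript, NM_005100, and a shorter one, NM_144497, that begins at a start within the gene. NM_144497 held the whole locus in 3 of the 4 libraries, with 1.89 FPKM in parental cells with DMSO and 12.1 FPKM with TBZ, and 81.2% of it in shMLKL with DMSO, where the gene stood at 0.228 FPKM. In GENCODE annotation of GRCh38, NM_144497 begins 157 bases beyond the RefSeq start that follows the second AKAP12 window above, which holds GGAATG. NM_005100 begins 32 bases beyond the start that follows the first, which holds the CArG box. The transcript listed with most of AKAP12 in these 4 single libraries is therefore the one beside the second window. The split between the transcripts is an estimate, and use of either start was not tested. The second experiment has no transcript lists.

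The lines under DMSO differed in opposite directions in the 2 experiments for several of the genes, with different control cells: parental HT-29 in the first and shGFP in the second. RHOB was 2.51-fold lower in shMLKL than in parental cells (log2 difference -1.28) and 1.85-fold higher than in shGFP. AKAP12 was 8.29-fold lower than in parental cells (-1.24) and 7.47-fold higher than in shGFP. GEM, CYR61 and CTGF were lower than in parental cells as well, by 0.80, 0.67 and 0.46 on the log2 scale, and higher than in shGFP. TNS4 was lower in shMLKL in both experiments, with -1.52 in the first (-0.38 over the locus). RND3 was higher in both (0.32 in the first). THBS1 stood 0.14 lower than in parental cells, with deposited intervals that allow -0.34 to 0.07. AMOTL2 was 0.89 higher by RefSeq sums and 0.16 lower over the locus. In the first experiment 7.09% of all genes were higher and 6.49% lower by at least 1 in this comparison. In shMLKL with DMSO, AKAP12 stood at 0.228 FPKM in the first experiment and at a mean of 9.47 FPKM in the second. Its controls stood at 1.89 and 1.27 FPKM. GEM stood at 0.767 and 4.09 FPKM in shMLKL, with controls at 2.07 and 1.16 FPKM. RHOB stood at 17.5 and 19.1 FPKM in shMLKL, with controls at 43.9 and 10.35 FPKM. The first values are RefSeq sums and the second come from a table of genes. Control line, experiment, measure and library cannot be told apart here.

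**Figure D5:**
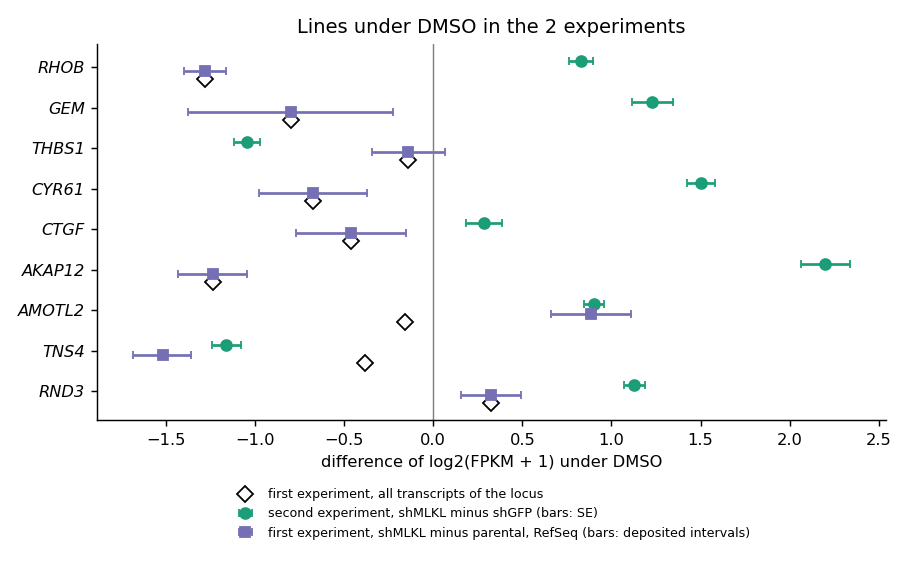
Difference of log2(FPKM + 1) under DMSO (x axis) of the 9 genes (y axis): shMLKL minus shGFP in the second experiment (circles, SE) and shMLKL minus parental in the first (squares for RefSeq sums with the range that the deposited intervals allow, diamonds for the whole locus). RHOB, GEM, CYR61, CTGF and AKAP12 lie left of 0 in the first and right of 0 in the second experiment.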

How the data were processed

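Per the labels' protocols, libraries were made with a stranded TruSeq mRNA kit and read as 100 nt pairs. The tools were STAR 2.4.0f1, TopHat2 2.0.13, GATK and Cufflinks 2.2.1 on hg19, per the submitters' processing notes, which give no role or order here. For the first experiment the authors deposited Cufflinks transcript lists with FPKM, its interval and coverage; for the second, 1 table of FPKM values, a unit its header does not name and that rests on Cufflinks being among the tools and on the range of the values. The identifiers in the deposited lists served to match transcripts to genes. No counts were given, so absolute depth is unknown and no count test was run; relative depth came from genes at 0.15 FPKM or less (second experiment) and from coverage per FPKM (first).

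For the 384 symbols on several lines, that of highest mean was used. Values were fitted as log2(FPKM + 1) in R 4.3.3 by limma 3.58.1 (group means of all 8 libraries, empirical Bayes with trend, 4 residual and 3.46 prior degrees of freedom, two-sided, Benjamini-Hochberg over 10364 genes, threshold 0.05). The fit was also run on simulated data in which far fewer genes changed than were called here, so that run does not vouch for these calls. The replicate number was no block: deviations of same-numbered libraries correlated at -0.066 to 0.0282 over 6 pairs of groups. RefSeq transcripts were matched to genes by identifier, with GRCh38.p14 tables for names only; gene coordinates are those of the hg19 transcripts.

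The 9 genes, the pathway lists and the tests were chosen with earlier results of these data known. Named were all 9 genes; in each list up to 4 called genes of largest difference per direction and TBZ contrast, and up to 4 for the difference of effects and for the lines under DMSO; relatives of the 9 that reach 1 FPKM in a group; and the 2 genes most alike by Pearson r. Some genes this rule names are not reported here. Alternatives were a pseudocount of 0.1, no filter, equal library medians, quantile normalization, sums over lines, fits of 2 groups, a replicate block, each library left out, the top transcript, and sums over the locus, the last chosen after seeing the data. Promoter sequences were not used for GEM, CYR61 and TNS4.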

Additional observations from a re-analysis of the deposited data

Results flagged for a closer look

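For 4 of the 9 genes every library of shGFP stood higher after TBZ and every library of shMLKL lower, a difference that was not tested. Of all genes tested 2.36% had this pattern, and since the 9 were chosen with these libraries in view nothing is read from that share. The difference within shMLKL was small for CTGF (-0.15, SE 0.10) and RND3 (-0.10, SE 0.06). The TBZ effect in shMLKL minus that in shGFP was -2.93 for CYR61, -2.47 for CTGF, -3.12 for AKAP12 and -1.41 for RND3 on the log2 scale.

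Among the pathway lists, limma's test of the difference between the TBZ effects of the 2 lines called these named genes, each with a Benjamini-Hochberg adjusted p under 0.05. The difference was -1.5 for FHL2, -1.48 for ZYX, -1.17 for ACTG1 and -0.95 for TUFT1 among SRF and MRTF targets. Among YAP and TEAD targets it was -1.13 for GADD45A, -0.98 for LATS2, -0.88 for F3 and -0.66 for AXL. Among regulators it was -0.83 for SRF, -0.51 for SAV1, 0.57 for TAOK2 and 0.35 for TAOK3, of which TAOK2 and TAOK3 lost the call under quantile normalization.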

How the results depend on the processing

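Precision is limited by 2 libraries per group, and by 1 in the first experiment. Of 354 recomputed counts of called list genes 328 stayed within 1.5 times the reported count. With medians set equal, regulators counted 13 higher in shGFP (reported 8), 1 higher and 7 lower in the difference of effects (2 and 4), and 4 lower under DMSO (7), and YAP and TEAD targets 0 lower under DMSO (1). Quantile normalization gave 0 for the last and 0 regulators higher in the difference, and a pseudocount of 0.1 gave 2 YAP and TEAD targets lower under DMSO. The cause was not tested. Leaving out single libraries gave 3 to 6 SRF and MRTF targets lower in shGFP (3 without shGFP TBZ replicate 1), 3 to 5 higher in shMLKL (3 without shMLKL DMSO replicate 2) and 0 to 1 higher in the difference (1 without shMLKL DMSO replicate 2). It gave 0 to 1 YAP and TEAD targets lower under DMSO (0 without shGFP DMSO replicate 1). Regulators ranged from 0 (without shGFP DMSO replicate 1 or shMLKL DMSO replicate 2) to 3 higher and 2 to 4 lower in the difference (4 reported; 2 without any one library other than shGFP TBZ replicate 1 and shMLKL DMSO replicate 1), and from 9 (without shMLKL DMSO replicate 2) to 14 higher under DMSO (15 reported). The replicate block gave 12 SRF and MRTF targets higher and 6 lower in shGFP and changed no count by over 1.5 times.

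Of 1053 recomputed values of named list genes 1033 kept their direction and call, and 20 lost the call (TPM2, PDLIM7, TGFB2, TAOK2 and TAOK3). TPM2 lost it without shGFP TBZ replicate 1 (-0.38), PDLIM7 without shMLKL DMSO replicate 2 (0.39) or TBZ replicate 2 (0.35). Of 666 recomputed log2 differences of the 9 genes in the second experiment, 547 stayed within the gene's pooled SD on the log2 scale. The other 119 moved by at least that much. Reversal was counted only where the groups did not overlap or a difference of effects exceeded 2 SE, and 0 reversed. In the first, the sum over all transcripts of the locus, chosen after seeing the data, reversed 5: THBS1 at 12 h (0.14), AMOTL2 at 4 h (-0.13), at 12 h (0.27) and between the lines (-0.16), and RND3 at 12 h (0.12). A further 8 of the 54 recomputed values of the first experiment moved without reversing.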
